A study of Mus musculus with 32 samples.

Results

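The MAP kinase phosphatases (MKPs) described here are Dusp1, Dusp2, Dusp4, Dusp5, Dusp6, Dusp7, Dusp8, Dusp10 and Dusp16, 9 of the 54838 genes in the table of expected counts. The members were chosen by symbol, with their levels in both genotypes and at the 4 ages in these libraries already known. Their values and test results are therefore a description, and the number of them that moved supports nothing by itself. RNA was sequenced from the tibialis anterior (TA) muscle of WT mice and of *Mtm1* KO mice, which model X-linked myotubular myopathy, at postnatal day 1 (P1), P14, P21 and P35, with 4 libraries for each genotype and age (32 in all). All mice were on the C57BL6/J background, and the labels name no treatment. The KO groups carried a deletion of exon 4 of *Mtm1*, which encodes a phosphoinositide phosphatase, and the deletion was present in all cells and not in muscle fibres alone. The labels name the tissue as skeletal muscle, and the TA is named in the methods of the study. They do not say whether libraries of a group came from different litters, so p-values measure the spread between these libraries.

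MAP kinases (ERK, JNK and p38) are switched on by phosphorylation of a threonine and a tyrosine, and MKPs switch them off by removing both phosphates. Several MKP genes are themselves induced by the kinases that their products inactivate, which makes them a negative feedback arm. By location and preferred kinase, the family divides into inducible nuclear enzymes (Dusp1, Dusp2, Dusp4 and Dusp5), cytoplasmic enzymes that act on ERK (Dusp6 and Dusp7), and enzymes that act mainly on JNK and p38 (Dusp8, Dusp10 and Dusp16). In skeletal muscle the pathway takes part in myogenesis, metabolism and the response to contraction and stress.

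The expected counts summed to between 49321035 and 85631408 per library. Mtm1 was lower in each KO library than in any WT library of its age, and its log2 fold change was −0.98 (adjusted p = 0.0668) in the P1 comparison, −2.34 in that of P14, −2.71 in that of P21 and −2.56 in that of P35. The muscle fibre markers were present in all libraries, with a sum of at least 15294 CPM (counts relative to library size) over 10 genes. The P1 libraries also held keratinocyte markers, whose sum over 10 genes was 1914 to 7009 CPM at P1 and 8.0 to 46.0 CPM in the libraries of the later ages. In whole muscle, fewer cells of a type and less RNA per cell cannot be told apart.

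Levels are given as CPM scaled by TMM over the 32 libraries. Each comparison was fitted on its own libraries with edgeR's quasi-likelihood test, and adjusted p-values are Benjamini-Hochberg values over all genes tested. A gene was counted as higher or lower where the adjusted p was under 0.01 and the fold change over 1.5 (log2 0.585). All 9 members passed the filter on low counts in every comparison.

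The sequences before the start sites are shown for the members with the largest KO differences that the RefSeq table held, Dusp2 and Dusp5 among those higher in KO muscle and Dusp7 and Dusp16 among those lower. The RefSeq table used here, on GRCm38.p6, was matched for 8 of the 9 members; the other is Dusp4. Each sequence is 200 bases long, from 250 to 51 bases before the RefSeq start site, and is written 5′ to 3′ on the strand of the gene. No base of it lies in an annotated exon of its gene. Capitals mark the motifs named after the sequences.
Dusp2, chr2:127335909-127336108, + strand: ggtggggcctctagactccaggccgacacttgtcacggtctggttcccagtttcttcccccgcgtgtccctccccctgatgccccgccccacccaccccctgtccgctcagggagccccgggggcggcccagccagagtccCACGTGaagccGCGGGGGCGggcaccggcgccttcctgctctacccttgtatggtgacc
Dusp5, chr19:53528895-53529094, + strand: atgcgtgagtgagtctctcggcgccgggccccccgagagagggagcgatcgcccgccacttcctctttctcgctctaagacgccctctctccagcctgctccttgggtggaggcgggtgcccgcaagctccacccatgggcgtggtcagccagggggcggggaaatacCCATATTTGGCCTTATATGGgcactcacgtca
Dusp7, chr9:106368382-106368581, + strand: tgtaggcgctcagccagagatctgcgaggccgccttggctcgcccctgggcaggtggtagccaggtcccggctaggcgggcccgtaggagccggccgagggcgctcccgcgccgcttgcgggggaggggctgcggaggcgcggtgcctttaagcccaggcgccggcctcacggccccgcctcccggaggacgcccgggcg
Dusp16, chr6:134792679-134792878, − strand: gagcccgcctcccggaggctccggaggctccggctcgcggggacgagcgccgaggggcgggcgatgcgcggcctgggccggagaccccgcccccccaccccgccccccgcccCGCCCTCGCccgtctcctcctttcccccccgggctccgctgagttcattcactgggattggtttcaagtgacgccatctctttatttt

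On both strands, 6 motifs were searched for in these windows. The CArG box, which serum response factor binds, occurred in 1 of the 8 member windows against 1.16% of 32851 windows of all genes. That window was Dusp5's, which held a pair of adjacent CArG boxes, starting 82 and 72 bases before the start site. The EGR site GCGNGGGCG occurred in 2 member windows, those of Dusp2 and Dusp16, and in 3.04% of all windows. The E-box CACGTG occurred in the windows of Dusp1 and Dusp2 and in 4.34% of all windows. The cyclic AMP response element (CRE) TGACGTCA occurred once before Dusp1 and at 2 positions before Dusp8, against 0.828% of all windows. The AP-1 site TGANTCA (5.57% of all windows) and the glucocorticoid response element (0.00913%) matched no member window. The matches of different motifs did not overlap. The window of Dusp7 held none of these letters and had the highest GC content of the 8, 77.5%, against 58.0% for that of Dusp6.

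**Figure D1:**
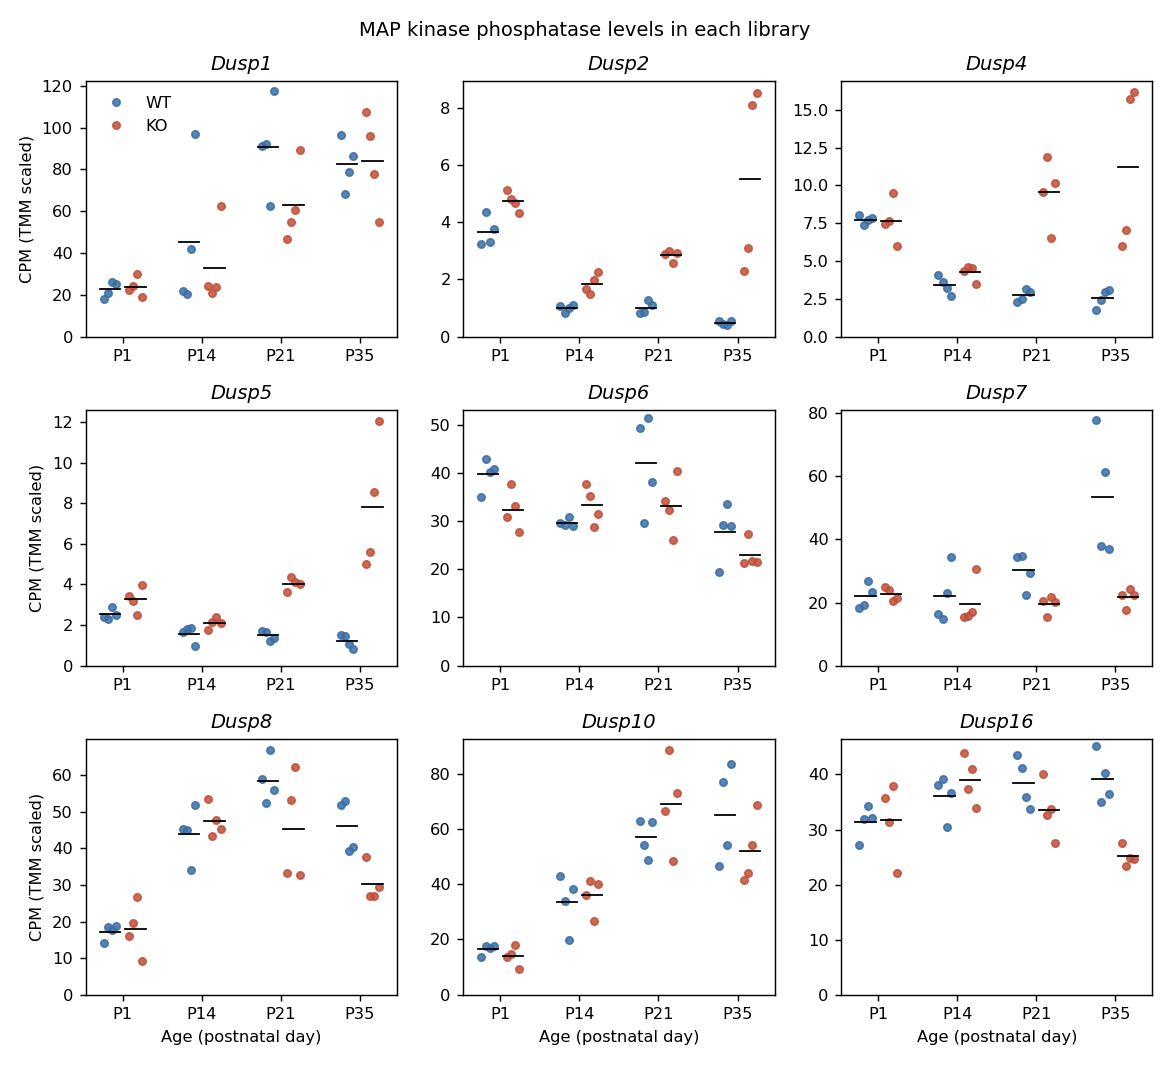
Level of each MAP kinase phosphatase in each of the 32 libraries, in CPM scaled by TMM, against age; blue points are WT libraries, red points are KO libraries and black bars are means of 4 libraries. Dusp2, Dusp4 and Dusp5 in KO muscle lie above WT at P21 and P35, and Dusp7 and Dusp16 in KO muscle lie below WT at P35.

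In the main fits, which were unpaired, none of the 9 members was called different between *Mtm1* KO and WT muscle at P1 or P14. The fit blocked on replicate number called Dusp2 at P14. In the main fits 3 were higher at P21 (Dusp2, Dusp4 and Dusp5), and at P35 the same 3 were higher and 2 were lower (Dusp7 and Dusp16). Of all genes tested, 0.0442% were called at P1 and 0.0318% at P14, which rose to 4.67% at P21 and 16% at P35. At an unadjusted p under 0.05, edgeR found 3 members at P1 and 1 at P14, against 10.9% and 6.82% of all genes, and DESeq2 called 0 and 1. Over all genes, DESeq2 called 76 higher and 23 lower of 30383 at P1, and 41 and 14 of 26596 at P14. By direction, 3.18% of all genes were higher at P21, and 8.49% were higher and 7.52% lower at P35. The genes that were higher were 3 of the 4 inducible nuclear enzymes, Dusp1 having log2 fold changes of −0.52 at P21 and 0.05 at P35, and the genes that were lower comprise 1 of the 2 cytoplasmic ERK phosphatases and 1 of the 3 JNK and p38 phosphatases. The median log2 fold change over the 9 members went from 0.06 (P1) and 0.11 (P14) to −0.19 (P21) and −0.25 (P35), and over all genes tested it lay between 0.00 and 0.04.

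**Figure D2:**
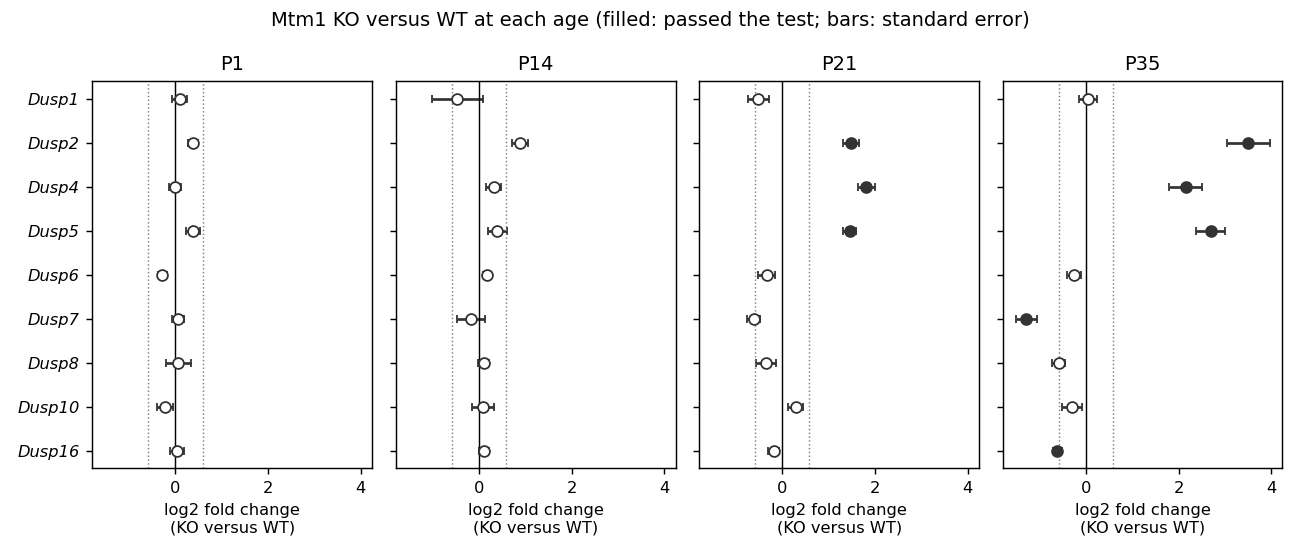
Log2 fold change of each MAP kinase phosphatase in KO versus WT muscle at each age, with its standard error; filled points passed the test and dotted lines mark a fold change of 1.5 in either direction. Dusp2 reaches 3.50 at P35, and Dusp7 lies at −1.28.

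Dusp2 (ENSMUSG00000027368, GRCm38 chr2:127336159-127338376, + strand) encodes PAC-1, an inducible nuclear phosphatase known from activated immune cells. At P1 the WT libraries measured 3.25, 4.35, 3.30 and 3.78 CPM, against 5.12, 4.80, 4.68 and 4.33 CPM in KO. The lowest KO value lay just under the highest WT value, and the fitted difference was log2 0.38 ± 0.11 (standard error; adjusted p = 0.262).
At P14 the WT libraries held 1.06, 0.819, 0.99 and 1.11 CPM, against 1.65, 1.5, 1.99 and 2.26 CPM in KO, so the genotypes no longer overlapped. The log2 fold change was 0.89 ± 0.17 with an adjusted p of 0.146. In the fit blocked on replicate number it was 0.88 with an adjusted p of 0.00613, which passed the threshold. Over all 15728 genes tested, the blocked fit called 67 higher and 31 lower, against 4 and 1 in the unpaired fit. Dusp2 was the only member whose libraries did not overlap at P14, where 4.84% of all genes did not.
At P21 the 4 WT libraries held 0.835 to 1.28 CPM, and the 4 KO libraries, at 2.56 to 3.0 CPM, all lay above them. The change was 2.80-fold (log2 1.48 ± 0.17, adjusted p = 8.13e-04). At P35 the WT libraries held 0.56, 0.445, 0.404 and 0.553 CPM, from 17 to 24 counts, against 2.29, 3.08, 8.09 and 8.54 CPM in KO, from 137 to 528 counts. Every KO library was above every WT library, but KO replicates 3 and 4 were well above KO replicates 1 and 2. The change was 11.3-fold (log2 3.50 ± 0.46, adjusted p = 4.76e-04), and it stayed between 3.2 and 3.76 on the log2 scale when any library was left out.

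Dusp4 (ENSMUSG00000031530, chr8:34807297-34819894, + strand) encodes MKP-2, a nuclear phosphatase of ERK, JNK and p38. Its level did not separate the genotypes at P1, with 7.41 to 8.05 CPM in WT and 6.01 to 9.47 CPM in KO muscle, or at P14, with 2.67 to 4.08 CPM and 3.49 to 4.60 CPM. At P21 WT libraries measured 2.31, 2.51, 3.14 and 2.98 CPM, against 9.56, 11.9, 6.55 and 10.2 CPM in KO. The groups did not overlap, and the change was 3.51-fold (log2 1.81 ± 0.19, adjusted p = 5.52e-04). At P35 they measured 1.75, 2.41, 2.94 and 3.11 CPM, against 5.98, 7.02, 15.7 and 16.2 CPM in KO, a 4.45-fold change (log2 2.15 ± 0.35, adjusted p = 0.00135). As for Dusp2, KO replicates 3 and 4 carried the higher levels.

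Dusp5 (ENSMUSG00000034765, chr19:53529109-53542431, + strand) encodes a nuclear phosphatase that acts on ERK and also holds it in the nucleus. An antisense gene shares 547 bases of its exons on the opposite strand and was not analysed here; the strand setting of the counting is not given in the sources used here. Its level was 2.29 to 2.87 CPM in WT and 2.48 to 3.97 CPM in KO muscle at P1, and 0.982 to 1.84 CPM and 1.74 to 2.38 CPM at P14, with overlap at both ages. At P21 the WT libraries held 1.72, 1.67, 1.21 and 1.36 CPM, against 3.62, 4.35, 4.14 and 4.0 CPM in KO. The KO libraries lay close together above all WT libraries, and the change was 2.73-fold (log2 1.45 ± 0.14, adjusted p = 3.97e-04).
At P35 the WT libraries held 1.51, 1.47, 1.09 and 0.83 CPM, against 5.01, 5.62, 8.56 and 12.0 CPM in KO, again without overlap, a 6.46-fold change (log2 2.69 ± 0.32, adjusted p = 2.78e-04).

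Dusp1 (ENSMUSG00000024190, chr17:26505590-26562128, − strand), which encodes MKP-1, the best known stress-inducible nuclear member, did not pass the test at any age. At P14 WT libraries measured 22, 20.4, 42.1 and 96.9 CPM, against 24.3, 20.8, 23.7 and 62.7 CPM in KO. Replicate 4 was the highest library in each genotype, and without WT replicate 4 the log2 fold change went from −0.47 ± 0.55 to 0.22. In the same order of libraries, the sum over 11 glucocorticoid responsive genes was 1248, 1163, 2255 and 3913 CPM in WT. In KO it was 878, 1189, 2226 and 2515 CPM, so that replicate 3 was near replicate 4 there, unlike for Dusp1. The sum over 20 immediate early genes was 311, 312, 401 and 519 CPM in WT, against 296, 281, 355 and 498 CPM in KO. The part of either list in the Dusp1 levels was not tested.
At P21 WT libraries measured 91.2, 92.2, 62.5 and 117 CPM of Dusp1, against 46.8, 54.7, 60.3 and 89.4 CPM in KO. The ranges overlapped (log2 −0.52 ± 0.22, adjusted p = 0.125). At P35 it was 68.4 to 96.6 CPM in WT and 54.6 to 107 CPM in KO muscle, with a log2 fold change of 0.05 ± 0.20 (adjusted p = 0.860). Among the KO libraries at P35, the one with the most Dusp1 (replicate 1, 107 CPM) had the least Dusp5 (5.01 CPM), and the one with the least Dusp1 (replicate 4, 54.6 CPM) had the most Dusp5 (12.0 CPM). Dusp1 shares 11 exonic bases with Ergic1 on the opposite strand.

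Of the cytoplasmic ERK phosphatases, Dusp7 (MKP-X, ENSMUSG00000053716, chr9:106368632-106375724, + strand) was lower in older KO muscle. At P21 WT libraries measured 34.3, 34.7, 22.3 and 29.5 CPM, against 20.4, 15.6, 21.8 and 20.1 CPM in KO. All KO libraries lay below all WT libraries, but the log2 fold change of −0.62 ± 0.15 had an adjusted p of 0.016. It passed without the filter on low counts (adjusted p = 0.00986) and with DESeq2 (6.17e-04). The other settings, library totals among them, did not call it, and 1 of the 8 fits that left out a library did. Against total counts the groups overlapped at P21, with 923 of 49321035 in WT replicate 3 and 1061 of 52887640 in KO replicate 3. At P35 the WT libraries measured 77.8, 37.9, 61.3 and 37.0 CPM, against 22.5, 17.7, 24.2 and 22.3 CPM in KO. The groups again did not overlap, and Dusp7 was 2.43-fold lower (log2 −1.28 ± 0.23, adjusted p = 0.00235).
Dusp6 (MKP-3, ENSMUSG00000019960, chr10:99263231-99267489, + strand), the classical feedback phosphatase of ERK, gave overlapping genotypes at every age. At P35 it measured 19.5, 29.1, 33.5 and 29.1 CPM in WT, against 21.3, 27.2, 21.6 and 21.6 CPM in KO (log2 −0.25 ± 0.16, adjusted p = 0.226). Dusp9 (MKP-4), the remaining cytoplasmic ERK phosphatase and not a member here, stood at 0.515 to 1.12 CPM at P1 and had at most 11 counts in any later library.

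Of the JNK and p38 phosphatases, Dusp16 (MKP-7, ENSMUSG00000030203, chr6:134715468-134792625, − strand) measured 45.2, 34.9, 40.2 and 36.5 CPM in WT at P35, against 27.6, 23.4, 24.9 and 24.6 CPM in KO. The KO libraries were all below the WT libraries, and Dusp16 was 1.53-fold lower (log2 −0.62 ± 0.10, adjusted p = 0.00103). Without WT replicate 1 the log2 fold change was −0.55 and under the fold limit, and with library totals in place of TMM it was −0.215 (adjusted p = 0.0688). With library totals the median over all genes moved to 0.44 at P35 and 0.20 at P21.
Dusp8 (ENSMUSG00000037887, chr7:142079490-142095843, − strand) measured 51.9, 53.0, 39.4 and 40.4 CPM in WT at P35, against 37.7, 27.1, 27.1 and 29.3 CPM in KO. These groups did not overlap either, and the adjusted p was 0.00898, but the log2 fold change of −0.58 ± 0.14 fell just inside the fold limit. With RLE size factors (−0.60) and with DESeq2 (−0.61) it lay past the limit. The other settings, library totals among them, did not call it, and 2 of the 8 fits that left out a library did. Against total counts the groups overlapped, with 1754 of 59697932 in WT replicate 4 and 2256 of 61025222 in KO replicate 1. Dusp8 shares 66 exonic bases with Gm32786 on the opposite strand, which had at most 1 count in any library. Dusp10 (MKP-5, ENSMUSG00000039384, chr1:184013302-184075636, + strand) overlapped at every age, with 46.5 to 83.4 CPM in WT and 41.4 to 68.6 CPM in KO muscle at P35 (log2 −0.30 ± 0.21, adjusted p = 0.280).
At the younger ages these 5 genes of the cytoplasmic and the JNK and p38 groups gave overlapping genotypes. Over both genotypes, Dusp6 ranged from 27.8 to 43.0 CPM at P1 and from 28.8 to 37.7 CPM at P14, and Dusp7 from 18.4 to 26.9 CPM and from 14.6 to 34.3 CPM. Dusp8 ranged from 9.19 to 26.6 CPM at P1 and from 34.1 to 53.3 CPM at P14, Dusp10 from 9.47 to 17.9 CPM and from 19.6 to 42.9 CPM, and Dusp16 from 22.1 to 37.9 CPM and from 30.5 to 43.9 CPM. At P21, where Dusp7 alone of these 5 was apart, Dusp6 ranged from 29.7 to 51.4 CPM in WT against 26.0 to 40.5 CPM in KO (log2 −0.33 ± 0.18, adjusted p = 0.225). The stress kinase members gave log2 −0.35 ± 0.21 for Dusp8 (adjusted p = 0.254), 0.29 ± 0.16 for Dusp10 (adjusted p = 0.230) and −0.19 ± 0.11 for Dusp16 (adjusted p = 0.268).
Across the 9 members, 4 had non-overlapping genotypes at P21 and 6 at P35, where 24.7% and 39.6% of all genes tested did not overlap, and none did at P1, where 8.62% did not overlap.

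The KO effects of the members were then compared between consecutive ages in a single fit of the 32 libraries. Dusp2 was the only member called in that fit, with a log2 fold change larger by 2.0 ± 0.41 at P35 than at P21 (adjusted p = 0.00875), where 0.463% of all genes were called and 0.151% had a larger effect at P35. This call was narrow: it was lost in 13 of the 16 fits that left out a library, with values from 1.71 to 2.26, and when only the 16 libraries of P21 and P35 were fitted (2.02, adjusted p = 0.0614). The KO effect on Dusp4 was larger by 1.48 ± 0.35 at P21 than at P14 (adjusted p = 0.0252). It passed with the replicate block within age (adjusted p = 0.00724), only the 16 libraries of P14 and P21 (0.00651) and DESeq2 (0.00453). That block also matched replicate numbers at ages other than P14, where they were not taken as pairs. The Dusp4 difference did not pass with RLE size factors, library totals or the other filters on low counts. None of the 16 fits that left out a library called it (1.36 to 1.63). The KO effect on Dusp5 was larger by 1.23 ± 0.33 at P35 than at P21 (adjusted p = 0.0422). Between P14 and P21, where 0.425% of all genes were called, edgeR called no member, with 3 at an unadjusted p under 0.05 (12.9% of all genes). DESeq2 called 1 member there, and 150 genes with a larger and 69 with a smaller log2 fold change at P21, of 32215. Between P1 and P14 the edgeR share was 0.0161%, and edgeR and DESeq2 called no member, with 1 at an unadjusted p under 0.05 in edgeR (6.46% of all genes).

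Between P1 and P14, 3 of the 4 inducible nuclear members fell and 2 of the 3 JNK and p38 members rose in each genotype. Dusp1, the fourth inducible member, was not called, with log2 fold changes of 0.99 in WT and 0.43 in KO muscle, and neither was Dusp16 (0.19 and 0.27). In WT muscle Dusp2 fell by 1.89 ± 0.15 on the log2 scale, Dusp4 fell by 1.19 ± 0.12 and Dusp5 fell by 0.68 ± 0.19, while Dusp8 rose by 1.34 ± 0.13 and Dusp10 rose by 1.01 ± 0.21 (adjusted p between 2.47e-06 and 0.00889). In KO muscle the same 5 genes were called in the same directions, with log2 fold changes of −1.39, −0.87, −0.67, 1.38 and 1.34. These steps share no libraries between the genotypes. Of all genes, 55.1% were called in WT (24.7% higher, 30.4% lower) and 52.6% in KO muscle (23.5% higher, 29.1% lower) over this step. Calls were thus about as common among the members as among all genes. The Dusp5 call was lost in all 8 WT fits and in 7 of the 8 KO fits that left out a library. With library totals the median over all genes moved by −0.85 in WT and −0.81 in KO muscle, and the calls of Dusp8 (0.57) and Dusp10 (0.25) in WT muscle and of Dusp8 (0.70) in KO muscle were lost. The keratinocyte marker sum in WT muscle was 2217 to 7009 CPM at P1 and 11.2 to 16.4 CPM at P14, and its part in the member levels was not tested.
From P14 to P21 no member was called in WT muscle (5.53% of all genes), whereas Dusp4 rose by 1.15 ± 0.18, Dusp5 by 0.93 ± 0.13 and Dusp10 by 0.92 ± 0.18 in KO muscle (7.04% of all genes called, 3.30% higher, adjusted p = 0.00259, 0.00191 and 0.00766). The Dusp10 rise was 0.75 ± 0.21 in WT muscle, with an adjusted p of 0.0276, and the KO call was lost in 6 of the 8 fits that left out a library. In WT muscle 3 members had an unadjusted p under 0.05 over this step, against 39.6% of all genes. DESeq2 called 1 member, and 660 genes higher and 696 lower of the 25922 it tested. From P21 to P35 edgeR called no member in WT (2.45%) or in KO muscle (4.01%), and DESeq2 called 2 and 1. Over all genes, DESeq2 called 460 higher and 419 lower of 25364 in WT, and 645 and 589 of 26704 in KO muscle. At an unadjusted p under 0.05 there were 4 and 5 members, against 34.4% and 38.7% of all genes. Over that step Dusp2 had a log2 fold change of −1.07 ± 0.23 in WT muscle (adjusted p = 0.0148) and of 0.97 ± 0.39 in KO muscle (adjusted p = 0.0995).

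**Figure D3:**
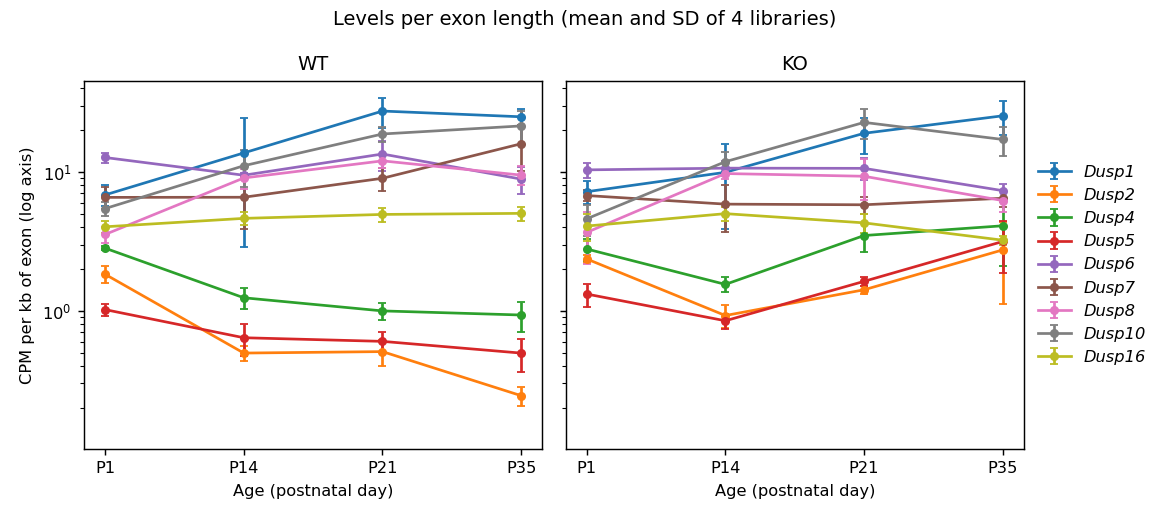
Level of each member per kb of exon, in CPM per kb on a log axis, against age in WT and KO muscle; points are means and bars SDs of 4 libraries. In WT muscle Dusp4, Dusp5 and Dusp2 lie apart below the other members from P14 on, and in KO muscle at P35 their libraries overlap those of Dusp16 on this scale.

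To compare members with each other, levels were divided by exon length. In WT muscle at P1, Dusp6 stood first at 12.7 ± 1.06 CPM per kb (SD, n = 4), above the range of Dusp1 (6.83 ± 1.18), which overlapped that of Dusp7 (6.55 ± 1.17), and Dusp5 stood last at 1.02 ± 0.10. By P35 the order in WT muscle was Dusp1 (24.9 ± 3.59), Dusp10 (21.4 ± 5.81), Dusp7 (15.9 ± 5.87), Dusp8 (9.48 ± 1.49), Dusp6 (8.87 ± 1.89), Dusp16 (5.03 ± 0.59), Dusp4 (0.93 ± 0.22), Dusp5 (0.50 ± 0.13) and Dusp2 (0.24 ± 0.04 CPM per kb). The neighbours Dusp1 and Dusp10, Dusp10 and Dusp7, and Dusp8 and Dusp6 had overlapping libraries, and the other neighbours did not.
In KO muscle at P35, Dusp1 (25.3 ± 6.94) and Dusp10 (17.1 ± 4.06 CPM per kb) were again first, and their libraries overlapped. Dusp4 (4.09 ± 1.99), Dusp5 (3.16 ± 1.30) and Dusp2 (2.74 ± 1.63) overlapped Dusp16 (3.22 ± 0.23 CPM per kb), the member that stood above them without overlap in WT muscle. Per kb of coding sequence, Dusp4 overlapped Dusp16 in KO muscle as well (5.01 to 13.6 against 11.1 to 13.04 CPM per kb), but Dusp5 (at most 10.4) and Dusp2 (at most 8.95) stayed below it.

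Libraries of a group also differed from each other, and the deviations were compared with those of 20 immediate early genes, transcription factors and other genes induced within minutes by MAP kinase signalling. Each member's log2 level was taken as a deviation from its group mean and set against the mean deviation of the 20 genes over the 32 libraries. Dusp1 deviated with them, with Pearson's r = 0.653 (adjusted permutation p = 8.1e-04 over 9 members) and Spearman's rho = 0.654 (adjusted permutation p = 0.0040). Without the 2 libraries farthest from the median, WT replicate 4 and KO replicate 1 at P21, r was 0.654. For Dusp7, r was 0.507 (adjusted permutation p = 0.0153) and rho 0.489 (adjusted permutation p = 0.0362), and r was 0.625 without these libraries. With library totals in place of TMM, r was 0.483 for Dusp1 (adjusted permutation p = 0.0161) and 0.352 for Dusp7 (adjusted permutation p = 0.142). For Dusp8, r was 0.438 (adjusted permutation p = 0.0501) and rho 0.477 (adjusted permutation p = 0.0402). The P14 libraries bear on these values. With the same-numbered WT and KO libraries of P14 permuted together, the adjusted permutation p of r was 0.0013 for Dusp1 and 0.0465 for Dusp7 and Dusp8. Over the 24 libraries of P1, P21 and P35, r was 0.638 for Dusp1 (adjusted permutation p = 0.0806), 0.340 for Dusp7 (adjusted permutation p = 0.305) and 0.481 for Dusp8 (adjusted permutation p = 0.0817), and no member passed. The other members had, over the 32 libraries, r between −0.304 and 0.016, including Dusp2 (0.016), Dusp4 (−0.304) and Dusp5 (−0.120), and adjusted permutation p-values of at least 0.371.

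**Figure D4:**
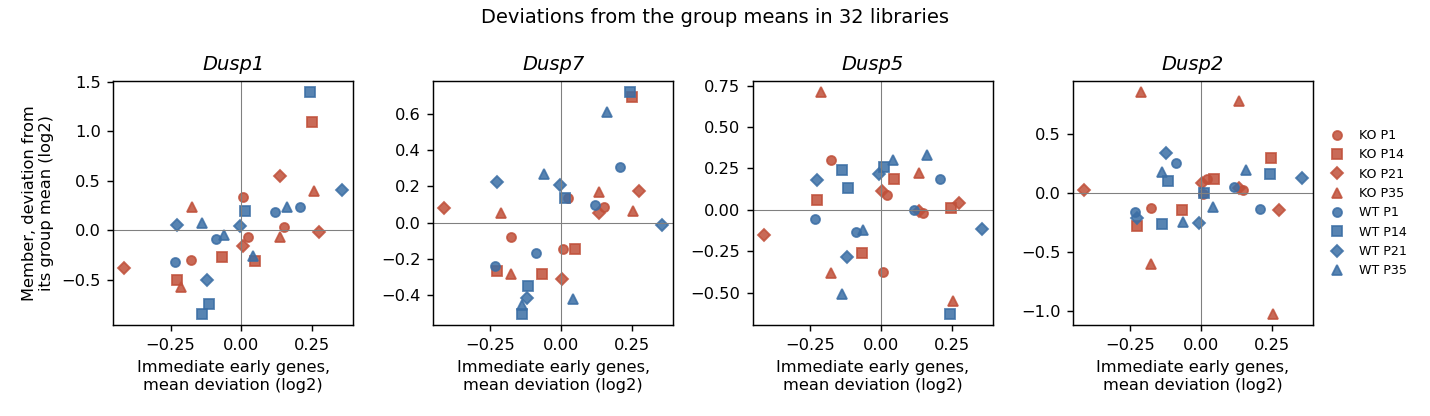
Deviation of Dusp1, Dusp7, Dusp5 and Dusp2 from their group means against the mean deviation of 20 immediate early genes, both on the log2 scale, in 32 libraries; blue marks WT, red marks KO and the symbol marks the age. Dusp1 (r = 0.653) and Dusp7 (r = 0.507) rise with the early genes, and r was −0.120 for Dusp5 and 0.016 for Dusp2.

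Among the other genes of the pathway, the immediate early genes gave the largest count. At P35, 11 of 20 were higher in KO muscle and none was lower, with a median log2 fold change of 1.36; at P21, 1 of 20 was higher (Egr3, 1.25 ± 0.23, adjusted p = 0.00575), a call lost in 6 of the 8 fits that left out a library and with the replicate block (adjusted p = 0.0145). Egr1, a zinc finger factor induced by ERK, ranged from 7.0 to 16.2 CPM in WT at P35, against 96.6 to 209 CPM in KO (log2 3.85 ± 0.32, adjusted p = 7.62e-05). Junb, a subunit of AP-1, ranged from 6.21 to 8.61 CPM against 42.8 to 54.5 CPM (log2 2.72 ± 0.12, adjusted p = 1.99e-06), and Atf3, a stress-induced factor, from 2.72 to 6.55 CPM against 23.2 to 38.9 CPM (log2 2.68 ± 0.27, adjusted p = 1.48e-04).
Of 14 ERK feedback and target genes, 3 were higher at P21 and 4 at P35, and none was lower. Fosl1, an AP-1 subunit, had at most 1 count in any WT library at these ages and stood at 1.35 to 1.69 CPM in KO libraries at P21 and 1.05 to 5.13 CPM at P35. Phlda1 was higher at P21 (0.82 ± 0.13, adjusted p = 0.00280) and P35 (1.81 ± 0.31, adjusted p = 0.00178), Spry1, an inhibitor of receptor signalling to ERK, at P21 (0.83 ± 0.14, adjusted p = 0.00356; lost in 4 of 8 fits that left out a library), and Ier3 at P35 (0.83 ± 0.13, adjusted p = 0.00114). The remaining gene called at P35 was Myc (0.86 ± 0.20, adjusted p = 0.00729).
Of 14 MAP kinases, 12 were tested at P21 and P35. None was called at P21, and 1 was higher (Mapk4, ERK4, 1.56 ± 0.36, adjusted p = 0.00696) and 3 were lower at P35. The lower genes were Mapk10 (JNK3), at 1.17 to 2.68 CPM in WT against 0.153 to 0.321 CPM in KO (log2 −2.91 ± 0.35, adjusted p = 3.05e-04), Mapk9 (JNK2; −0.73 ± 0.10, adjusted p = 5.38e-04) and Mapk14 (p38α; −0.74 ± 0.11, adjusted p = 8.18e-04). Of 7 MAP kinase kinases, Map2k6, which activates p38, was the only gene called. It ranged from 26.8 to 39.2 CPM in WT at P21, against 13.3 to 21.5 CPM in KO (log2 −0.87 ± 0.18, adjusted p = 0.00984), and from 47.6 to 64.8 CPM at P35, against 12.4 to 22.9 CPM (log2 −1.82 ± 0.20, adjusted p = 2.16e-04). The P21 call was lost in each of the 8 fits that left out a library.
Of 12 RAS and RAF genes, 1 was called, Sos2, an exchange factor of RAS, which was lower at P35 (−0.84 ± 0.08, adjusted p = 1.12e-04). At that age 7.52% of all genes were lower. Of 10 activators and substrates of the stress kinases, Gadd45a was higher at P21 (1.23 ± 0.14, adjusted p = 8.20e-04) and P35 (1.57 ± 0.33, adjusted p = 0.00496; lost in 6 of 8 fits that left out a library), and Gadd45b was lower at P35 (−1.49 ± 0.20, adjusted p = 4.91e-04).
With library totals, Mapk9 (−0.33), Mapk14 (−0.33) and Sos2 (−0.43) lay inside the fold limit at P35.
Of 18 other dual specificity phosphatases, 15 were tested at P21 and P35. At P21, Dupd1 (1.69 ± 0.20, adjusted p = 8.72e-04) and Dusp14 (1.04 ± 0.17, adjusted p = 0.00369; lost in 4 of 8 fits that left out a library) were higher. At P35, Dusp18 was higher (1.70 ± 0.30, adjusted p = 0.00184), and Styx (−0.85 ± 0.13, adjusted p = 7.95e-04) and Dusp26 (−1.27 ± 0.19, adjusted p = 8.20e-04) were lower, and with library totals Styx (−0.44) lay inside the fold limit. Of 11 glucocorticoid responsive genes, 4 were higher at P1, among them Zbtb16 (1.77 ± 0.12, adjusted p = 0.00174) and Per1 (1.23 ± 0.11, adjusted p = 0.00394) and Klf9 (0.89 ± 0.08, adjusted p = 0.00394), with Fkbp5 (1.57 ± 0.14, adjusted p = 0.00402) as the fourth, 1 was higher at P21 (Mt2, 3.26 ± 0.27, adjusted p = 1.62e-04), and at P35 Mt2 was higher (3.69 ± 0.67, adjusted p = 0.00223) and Sgk1 (−1.30 ± 0.28, adjusted p = 0.00537) and Klf9 (−0.59 ± 0.13, adjusted p = 0.0058) were lower. Leaving out a library moved the P1 count in 6 of 8 fits, down to 0, and with all 32 libraries in the fit Zbtb16 (adjusted p = 0.0677), Per1 (0.199) and Klf9 (0.0673) were not called at P1. At P35 the calls of Sgk1 and Klf9 were each lost in 6 of 8 fits that left out a library and with library totals (adjusted p = 0.0203 and 0.236). The glucocorticoid list and all the other lists were drawn with earlier results of these data known. Their counts are not independent evidence of any direction.

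**Figure D5:**
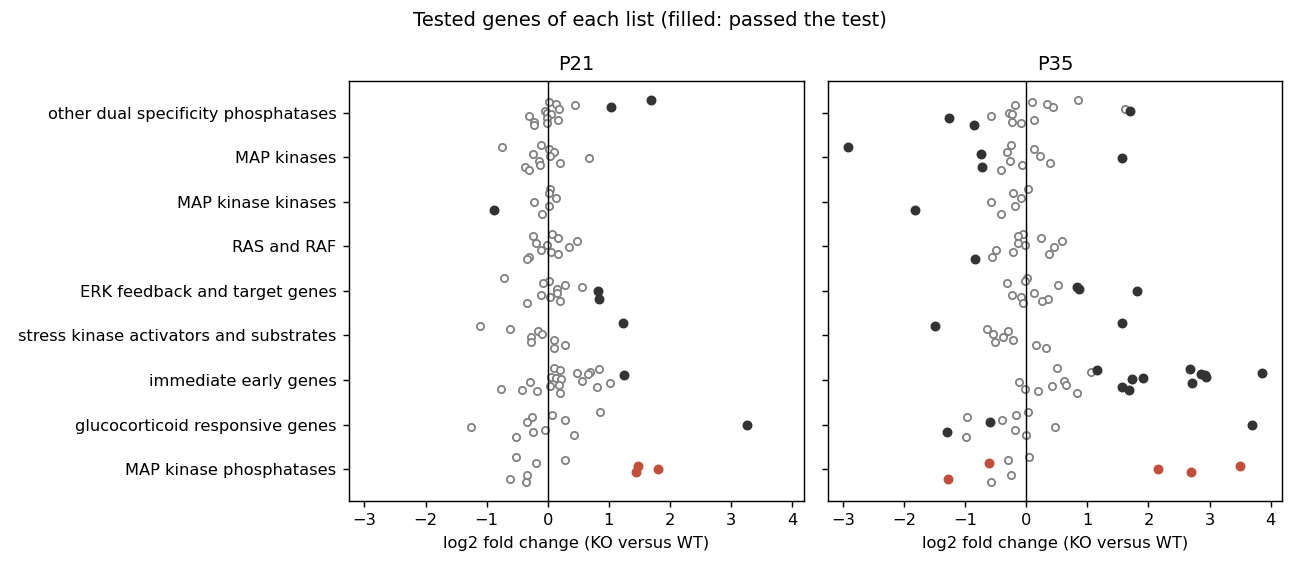
Log2 fold change in KO versus WT muscle at P21 and P35 of the tested genes of each list, with filled points for genes that passed the test; Fosl1 is left out because its WT libraries held at most 1 count. The immediate early genes lie mostly to the right at P35, where 11 of 20 passed, and the 9 members spread to both sides.

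Cell type markers also moved with genotype at P35. Muscle fibre markers summed to 127626 to 181019 CPM in WT against 83709 to 110457 CPM in KO, with 2 of 10 genes lower and a median log2 fold change of −0.64. Lymphocyte markers summed to 2.7 to 4.32 CPM in WT against 4.36 to 6.93 CPM in KO, with 1 of the 3 tested genes higher. Macrophage markers summed to 77.5 to 103 CPM and 92.3 to 128 CPM, which overlapped, with 4 of 8 genes higher. Adipocyte markers summed to 235 to 366 CPM and 398 to 581 CPM, with 4 of 6 genes higher. Endothelial markers summed to 479 to 770 CPM and 358 to 432 CPM, with 4 of 7 genes lower, and keratinocyte markers to 10.6 to 12.0 CPM and 35.8 to 46.0 CPM, with 2 of the 4 tested genes higher. Of 5 satellite cell markers, 2 were lower at P21 and 2 at P35. At P21, 3 of 8 macrophage markers and 2 of the 3 tested keratinocyte markers were higher. Schwann cell markers held no called gene, but summed to 88.0 to 552 CPM in WT against 296 to 1188 CPM in KO at P35, with a median log2 fold change of 1.57. Fibroblast markers held no called gene at any age. Of 6 neutrophil markers, 3 were at 0 in all WT libraries at P35 (Camp, Mpo and Elane). The part of these cell types in the levels of Dusp2, Dusp4, Dusp5, Dusp7 and Dusp16 was not tested. In the 4 KO libraries at P35, the lymphocyte sum was 4.36, 6.93, 6.88 and 6.58 CPM, beside Dusp2 levels of 2.29, 3.08, 8.09 and 8.54 CPM. The macrophage sum was 92.3, 122, 128 and 112 CPM in these libraries. At P21, where Dusp2 was apart, the lymphocyte sums overlapped (3.81 to 6.03 CPM in WT, 4.88 to 6.86 CPM in KO). Macrophage sums did not overlap at P21 (90.7 to 103 CPM in WT, 106 to 130 CPM in KO).

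The genes whose log2 levels followed each member most closely over the 32 libraries were found among 13523 genes with a mean of at least 1 CPM. The libraries share the course with age, so that high values of r were common. For Dusp2 they were Tgif1 (Pearson's r = 0.947), Egr3 (0.940) and Tubb6 (0.931), for Dusp4 Rrad (0.95), Slc9a9 (0.940) and Pgm5 (0.938), and for Dusp5 Ahnak2 (0.927), Klf5 (0.925) and Anxa4 (0.917). For Dusp1 they were Crebl2 (0.909), Idua (0.909) and Tango2 (0.907), for Dusp6 Adcyap1r1 (0.796), Atf7ip (0.778) and Rttn (0.776), and for Dusp7 Hsd11b1 (0.873), Lnx1 (0.837) and Zfp467 (0.827). For Dusp8 they were Synpo2 (0.940), Aifm1 (0.932) and Capn3 (0.932), for Dusp10 Lmod3 (0.952), Hspb6 (0.948) and Hps6 (0.947), and for Dusp16 N4bp1 (0.845) and Klhdc3 (0.827). Of the genes named here, 1 was on a list of the pathway, Egr3 beside Dusp2. The deviations of the members from their group means varied together most for Dusp1 and Dusp7 (r = 0.704) and for Dusp2 and Dusp4 (r = 0.648), and were most opposed for Dusp1 and Dusp5 (r = −0.447). These values describe libraries that share their scaling, and were not tested.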

How the data were processed

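RNA of the TA muscle was poly(A)-selected and made into directional libraries, 4 per genotype and age. The authors deposited expected counts per gene; the labels name STAR 2.6.1, RSEM 1.2.22, DESeq2 and GRCm38, whereas HTSeq is the counter in the methods. The annotation release and the strand setting are not given in the sources used here. Symbols were matched to Ensembl IDs for 99.79% of genes. Expected counts (4.26% of values not whole) were rounded, filtered with filterByExpr, scaled by TMM and tested with edgeR 4.0.16 (quasi-likelihood, two-sided, Benjamini-Hochberg) in R 4.3.3, by age, by age step and for the interaction. Standard errors are the log2 fold change divided by the square root of F. CPM were scaled by TMM over 32 libraries, and log2 levels used a prior count of 2. Correlations were tested with 100000 permutations within groups, two-sided. On data simulated for KO versus WT at P21, of which 15039 genes passed the filter, the test recovered 72 of 100 genes changed 2-fold and 96 of 100 changed 4-fold, with 1 false call. The changed genes were drawn above a count limit, with as many raised as lowered. Counts were drawn with dispersions fitted to the same libraries. These values therefore do not give the recovery or the false calls in the real comparisons. The members and the lists were chosen with earlier results of these data known. Named genes were all members, up to 3 called genes per list and comparison with the smallest adjusted p, Dusp9, and the 3 most similar genes per member, of which 1 is not reported here; Mapk4, Myc and Fkbp5 were named outside this rule after their values were seen. The 4 libraries of each group differed beyond counting noise.

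Replicate numbers in the labels are not tied to a litter, batch or day. Of the deviations from the group mean, those of WT and KO libraries with 1 number correlated over 0.1 in every pair only at P14 (r = 0.416, 0.468, 0.295 and 0.731). Only there were the numbers taken as pairs, in the blocked fit and in a permutation of the correlations. The replicate block was also run elsewhere as an alternative, and the block within age matched numbers at all 4 ages. Outside P14 that matching has no such correlation in every pair behind it. The main fit was unpaired at every age, P14 included. Alternatives were DESeq2 1.42.0, RLE size factors, library totals, no low count filter, at least 10 counts in every library, a replicate block, all 32 libraries or only 16 in the fit, coding length, leaving out each library and, added after seeing the data, P14 pairs permuted together and no P14 libraries for the correlations.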

Additional observations from a re-analysis of the deposited data

Results flagged for a closer look

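In 72 groups of 4 libraries (9 members, 8 groups), 4 held a library whose gap to the nearest other was too large a part of the range of the group by Dixon's 95% limit; chance alone gives about 1 in 20. Dusp1 was 62.7 CPM in KO replicate 4 at P14, against 20.8 to 24.3 CPM in the other KO libraries. Dusp7 was 30.5 CPM in the same library, against 15.5 to 17.0 CPM. Dusp6 was 27.2 CPM in KO replicate 2 at P35, against 21.3 to 21.6 CPM, and Dusp10 was 13.8 CPM in WT replicate 1 at P1, against 17.1 to 17.7 CPM. In the main interaction test, the log2 fold change of Dusp2 in KO versus WT was larger by 2.0 at P35 than at P21. That call was lost in 13 of the 16 fits that left out a library.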

How the results depend on the processing

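Of 385 values of single members recomputed with another test, scaling, filter, set of libraries or block, 359 kept their direction and side of the threshold, among them all values of Dusp2, Dusp4 and Dusp5 in KO versus WT at P21 and P35. The number of members called rose from 0 to 1 at P14 with DESeq2 and with the replicate block (Dusp2 in both). For P21 versus P14 in WT, DESeq2 called 1; for P35 versus P21 in WT, 1 with all 32 libraries and 2 with DESeq2; for P35 versus P21 in KO, 2 and 1. The KO effect at P21 versus P14 gave 1 (Dusp4) with the replicate block within age, only 16 libraries or DESeq2. That at P35 versus P21 gave 0 in place of 1 with RLE, the block within age or only 16 libraries. Leaving out a library gave 0 to 1 for that effect, 0 to 1 for P21 versus P14 in WT and 2 to 5 in KO. With library totals, the uncalled effects of Dusp4 at P1 (0.0116), Dusp16 at P21 (0.000434), Dusp6 at P35 (0.154) and Dusp10 at P35 (0.1) were positive. With the block, Dusp8 at P1 was −0.0198. Leaving out a library turned uncalled effects: at P1 Dusp1 ranged from −0.0399 to 0.181, Dusp4 from −0.132 to 0.0907, Dusp7 from −0.0206 to 0.166, Dusp8 from −0.198 to 0.277 and Dusp16 from −0.0687 to 0.17. At P14 Dusp1 ranged from −0.99 to 0.217, Dusp7 from −0.464 to 0.126, Dusp8 from −0.00544 to 0.19 and Dusp10 from −0.0978 to 0.233, and at P35 Dusp1 from −0.0964 to 0.193. In comparisons whose numbers were not taken as pairs, the replicate block removed the calls of Dusp5 for P14 versus P1 (−0.704 in WT, −0.658 in KO), of Dusp4 for P21 versus P14 in KO (1.13), of Egr3 (1.23) and Spry1 (0.824) at P21, and of Per1 (1.22) and Klf9 (0.886) at P1. It changed no call of a member in KO versus WT at P1, P21 or P35. The highest member level in WT muscle at P35 was 102 times the lowest by exon length and 134 times by coding length. Of the members, 2 deviated with the early genes under TMM 1 under library totals, 3 with the P14 pairs permuted together and 0 without the P14 libraries, the last a fit of fewer samples. Called genes of the lists ranged from 9 to 15 for the immediate early genes at P35 (11 in the report), 3 to 6 for other dual specificity phosphatases at P35 (3), 1 to 4 for RAS and RAF at P35 (1) and 0 to 8 for the glucocorticoid list at P1 (4). The causes were not tested. Dusp2 in WT muscle at P35 rested on 17 to 24 counts per library, which limits the precision of its fold change.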
